A study of Mus musculus with 8 samples.

Results

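The genes described here encode proteins that coat, enlarge or assemble lipid droplets: the 5 perilipin genes Plin1 to Plin5, the CIDE genes Cidec and Cidea, the seipin gene Bscl2, the gene Fitm2 and the adipogenin gene Adig. They were found on a mouse expression array as the probes whose transcript accession belongs to one of these 10 symbols. That gave 13 of the 56413 probes left after spot flags, with 2 probes each for Plin2, Plin5 and Fitm2 and 1 for each other gene. All 10 genes passed the filter on dim probes and stand among the 29585 genes or unnamed features tested.

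The arrays measured RNA of cultured adherent cells grown from the abdominal subcutaneous fat of male C57BL/6 mice and passaged, which the labels call adipose-derived mesenchymal stem cells. The mice were 6 weeks old when the diets began. The 4 groups of 2 arrays are HF24 (a diet with 60% fat for 24 weeks), C24 (control chow for 24 weeks), HF12 (the diet with 60% fat for 12 weeks) and C12 (control chow for 12 weeks), and the sample titles call the 24-week groups old and the 12-week groups young. Nothing in the labels tells whether both arrays of a group stem from different mice or culture dishes, and the p-values therefore cover array-to-array spread that could be technical alone. Neither slide row nor the age of the mice at the end of feeding can be told apart from feeding time. Slide column cannot be told apart from diet, and the number of arrays limits the precision.

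Lipid droplets store triglyceride in a core that is closed off by a phospholipid layer and coat proteins. Perilipins sit on that surface and regulate the access of lipases to the core; CIDE proteins let small droplets pass lipid to larger ones; seipin and the FIT proteins act in the endoplasmic reticulum where droplets form. In fat tissue, perilipin 1 and the protein of Cidec are typical of mature fat cells with large droplets, while the proteins of Plin2 and Plin3 occur in many cell types.

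Of the members, 9 have at least 1 start in the RefSeq promoter table (build GRCm38.p6), with 13 starts in all. The 250 bases before the start are printed for Plin1, Plin4, Cidec and Adig, which had the widest ranges between group means, and for Plin2, which was higher on the high-fat diet at 12 weeks. Capitals mark AGGTCA, the half-site of nuclear receptors such as PPARγ, and TTGCNNAA, a form of the C/EBP site, each on either strand, where N is any base. In Plin2 the match lies on the opposite strand and reads TGACCT.
Plin1, chr7:79732777-79733026, strand minus: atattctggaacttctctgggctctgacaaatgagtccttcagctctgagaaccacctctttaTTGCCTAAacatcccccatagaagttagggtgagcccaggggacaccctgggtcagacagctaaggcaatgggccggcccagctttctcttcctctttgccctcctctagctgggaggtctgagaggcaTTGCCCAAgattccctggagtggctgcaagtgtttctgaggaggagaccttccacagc
Plin4, chr17:56109783-56110032, strand minus: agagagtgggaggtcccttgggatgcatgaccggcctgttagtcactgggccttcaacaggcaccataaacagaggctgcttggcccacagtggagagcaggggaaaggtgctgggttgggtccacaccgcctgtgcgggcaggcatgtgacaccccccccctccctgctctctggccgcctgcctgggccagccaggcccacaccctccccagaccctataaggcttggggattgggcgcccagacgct
Cidec, start 1, chr6:113435761-113436010, strand minus: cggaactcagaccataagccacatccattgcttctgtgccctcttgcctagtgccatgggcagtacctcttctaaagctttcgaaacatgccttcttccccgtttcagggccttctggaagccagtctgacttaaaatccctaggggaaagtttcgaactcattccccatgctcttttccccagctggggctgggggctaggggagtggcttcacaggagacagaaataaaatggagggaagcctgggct
Cidec, start 2, chr6:113434765-113435014, strand minus: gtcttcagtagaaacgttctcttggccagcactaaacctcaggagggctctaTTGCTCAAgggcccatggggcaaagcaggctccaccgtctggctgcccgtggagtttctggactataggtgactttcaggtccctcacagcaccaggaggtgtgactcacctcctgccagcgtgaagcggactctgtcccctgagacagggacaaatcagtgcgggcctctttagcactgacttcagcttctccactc
Adig, chr2:158502362-158502611, strand plus: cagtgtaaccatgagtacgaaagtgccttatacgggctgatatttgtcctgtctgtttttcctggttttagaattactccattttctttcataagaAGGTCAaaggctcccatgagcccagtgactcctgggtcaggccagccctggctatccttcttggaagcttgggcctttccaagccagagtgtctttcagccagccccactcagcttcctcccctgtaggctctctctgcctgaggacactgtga
Plin2, chr4:86670060-86670309, strand minus: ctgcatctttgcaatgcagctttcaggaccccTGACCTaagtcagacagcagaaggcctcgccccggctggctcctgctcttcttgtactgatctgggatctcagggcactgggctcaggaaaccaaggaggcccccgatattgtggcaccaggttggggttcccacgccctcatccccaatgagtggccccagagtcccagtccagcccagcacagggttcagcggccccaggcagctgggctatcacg
In the window of 250 bases before to 50 after the start, AGGTCA was present in 5 of the 13 starts of the members, against 16.3% of all 32851 starts in the table. These were the starts of Plin2 and Adig, both starts of Plin5 and start 2 of Bscl2. Starts of the same gene were counted separately. TTGCNNAA was present in 2 of 13 starts, those of Plin1 and of Cidec start 2, against 10.8% of all starts. The Plin1 window held it at 2 places. The direct repeat of AGGTCA with 1 base between, the PPAR and RXR element known as DR1, was in 0 of 13 starts and in 0.0396% of all starts. No matches of the motifs overlapped each other, and the Plin4 window held none. A match is a description of the sequence, and members with and without a match are described together below.

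Levels are given as log2 of the processed intensity minus the 75th percentile of the same array, so that 0 is that percentile, and differences are log2 differences ± SE with 2 arrays per group. A level belongs to 1 probe and was not compared with the level of another gene. A gene is called when limma gives an adjusted p under 0.05, Benjamini-Hochberg over all 29585 features, in a two-sided test. In bulk RNA, fewer cells of a type and less RNA per cell cannot be told apart.

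The 11 stromal markers on the array, among them Pdgfra, Thy1 and Col1a1, were well above background in every group. Their summed level ran from 589 to 614 times the 75th percentile in HF24, 666 to 671 in C24, 587 to 612 in HF12 and 713 to 744 in C12. Single stromal markers moved more. Between C24 and C12, 3 were higher, 5 did not pass and 3 were lower, among them Nt5e (−2.50) and Lum (−1.90). Between HF12 and C12, 1 was higher and 6 were lower, among them Nt5e (−3.31). Markers of mature fat cells were present as well, with 7 of 12 above background in HF24, 10 in C24, 11 in HF12 and 12 in C12. Their summed level was 73.6 to 75.4 in HF24, 99.4 to 101 in C24, 176 to 185 in HF12 and 744 to 752 in C12, the order of group means that 8 of the 10 members had by their brightest probe. The summed levels of the skeletal muscle markers and of the brown fat markers, both given below, had the same order. Bright genes weigh most in such a sum, and not every fat cell marker had the order of the sum. Between HF12 and C12, 10 were lower and Cd36 was higher (1.43). Between HF24 and HF12, 8 were lower and 2 higher, Slc2a4 (0.84) and Pck1. Pck1 was below background in both groups and gives no fold. Lep passed in no comparison. In HF24, Adipoq, Cfd, Pck1, Retn and Thrsp were not well above background. At 24 weeks the brightest fat cell markers, which weigh most in the sum, were Fabp4, Lpl and Cd36. Their mean levels were 5.11, 5.03 and 2.53 in HF24 and 4.99, 5.94 and 2.33 in C24. Between these groups Lpl was lower in HF24 (−0.91), while Fabp4 (0.12) and Cd36 (0.19) did not pass. All 12 macrophage markers were above background in every group, with a summed level of 177 to 181 in HF24, 80.5 to 82.6 in C24, 227 in HF12 and 29.7 to 29.8 in C12. All 7 skeletal muscle markers were above background in every group, with a summed level of 8.22 to 8.41 in HF24, 40.9 to 42.9 in C24, 75.3 to 79.2 in HF12 and 107 to 108 in C12. Of 6 keratinocyte markers, 4 were above background in HF24, 5 in C24 and 4 in each of HF12 and C12. Their summed level was 2.45 to 2.64 in HF24, 5.99 to 6.11 in C24, 3.08 in HF12 and 3.05 to 3.18 in C12. Of the 5 tested, 4 were higher in C24 than in C12, among them Krt5 (5.10) and Krt14 (5.57), and Trp63 was lower (−0.24). Trp63 was the brightest of them in every group, at a mean level of 1.57 in C12, and so weighs most in the sum. The part of these cell types in the results below was not tested.

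The high-fat diet went with lower levels of most droplet genes after 12 weeks. Between HF12 and C12, 7 members were lower, 1 was higher (Plin2) and 2 did not pass (Plin3 and Cidea), where 31.3% of all features were called, 17.6% lower and 13.7% higher. Of the 7, 6 were lower by at least 2-fold, against 3.19% of all features, and Plin2 was higher by at least 2-fold, as were 4.02% of all features. The median difference over the 10 members was −1.46, against −0.03 over all features. After 24 weeks the diet comparison was smaller. Between HF24 and C24, 4 members were lower, 1 was higher (Plin3) and 5 did not pass, where 33.1% of all features were called, 20.2% lower and 12.9% higher. The member median was −0.21, against −0.01 over all features, and 1 member, Plin1, was lower by at least 2-fold, against 6.19% of all features; none was higher by that much, against 1.36%. The count of 5 called members became 3 without C24 replicate 1, C24 replicate 2 or HF24 replicate 2, and also 3 with normexp background correction, quantile normalization, no filter on dim probes or only the groups compared.

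Longer feeding, and with it higher age, went with lower levels on both diets. Between C24 and C12 all 10 members were lower, where 46.5% of all features were called, 22% lower and 24.5% higher. The member median was −2.41, against 0.02 over all features, and 7 members were lower by at least 2-fold, against 6.26% of all features, while 4.62% of all features were higher by that much. Between HF24 and HF12, 9 members were lower and Plin5 did not pass, where 46.6% of all features were called, 25.5% lower and 21.1% higher. At least 2-fold lower were 6 members, against 7.29% of all features, and 2.38% of all features were higher by that much. The member median was −1.64, against −0.03 over all features. These 4 comparisons share groups, so their values are given side by side and not as independent support of each other.

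**Figure D1:**
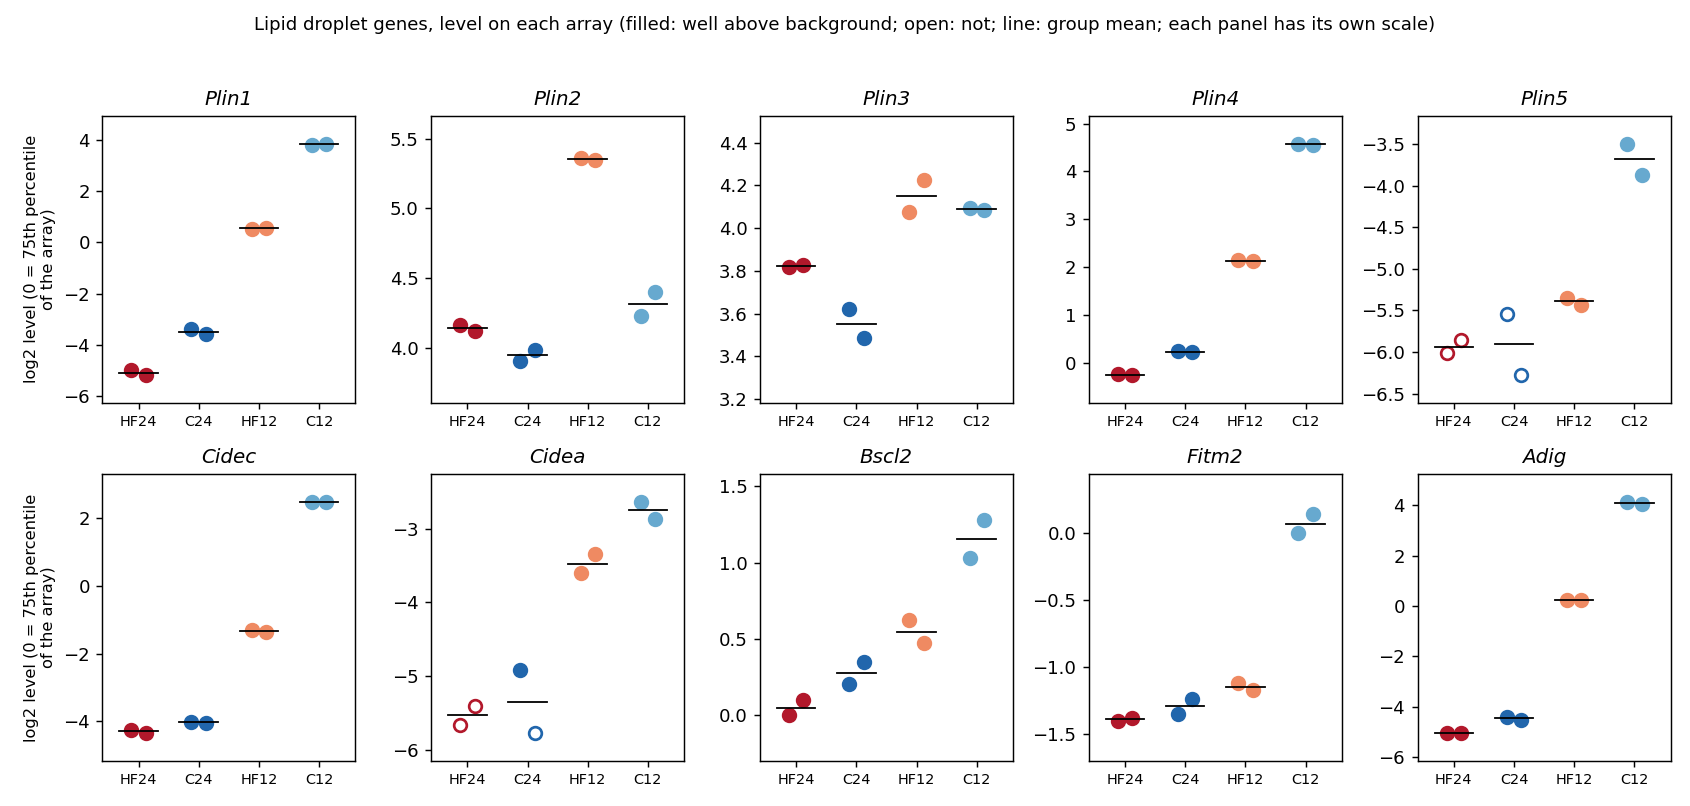
Log2 level of each of the 10 genes on each of the 8 arrays, with groups HF24, C24, HF12 and C12 along the horizontal axis and a scale for each gene. Points are arrays, filled where well above background, and lines are group means; 8 genes have their lowest mean in HF24 and their highest in C12 by the probe shown, while Plin2 and Plin3 are highest in HF12.

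Plin1 and Plin4 encode coat proteins typical of fat cells; perilipin 1 restrains lipolysis until it is phosphorylated, and perilipin 4 coats small new droplets. Plin1 had levels of −5.00 and −5.18 in HF24, −3.39 and −3.59 in C24, 0.54 and 0.57 in HF12, and 3.81 and 3.86 in C12. No 2 groups overlapped, and the step between adjacent groups exceeded the spread within each. On the high-fat diet Plin1 fell by 3.28 ± 0.09 at 12 weeks (adjusted p = 4.97e-06), a 9.73-fold difference, and by 1.60 ± 0.09 at 24 weeks (adjusted p = 0.000185). Between the feeding times it fell by 5.64 ± 0.09 on the high-fat diet (adjusted p = 2.70e-06) and on chow the difference was −7.32 ± 0.09 (adjusted p = 7.04e-07). The HF24 levels of Plin1 lie just above the lowest levels that counted as well above background on those arrays, −5.31 and −5.49. With normexp background correction the 24-week diet difference of Plin1 was −0.64 (adjusted p = 0.000218), less than the −1.60 of the processed intensity. Under the alternatives run, the Plin1 difference between HF24 and HF12 went from −5.73 to −4.10.

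Plin4 had levels of −0.25 and −0.26 in HF24, 0.24 and 0.21 in C24, 2.14 and 2.12 in HF12, and 4.58 and 4.56 in C12. Both arrays of each group nearly coincided, and no groups overlapped. Plin4 fell by 2.44 ± 0.05 on the high-fat diet at 12 weeks (adjusted p = 1.97e-06) and by 0.48 ± 0.05 at 24 weeks (adjusted p = 0.00111). With time it fell by 2.38 ± 0.05 on the high-fat diet (adjusted p = 4.08e-06) and on chow the difference was −4.35 ± 0.05 (adjusted p = 4.91e-07). Of the perilipin genes Plin4 had the smallest standard error, and its calls, the interaction included, held under each alternative run.

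Plin2 encodes the coat protein of droplets in many cell types, lipid-laden macrophages among them, and Plin3 a coat protein that moves from the cytosol to new droplets. Plin2 had levels of 4.17 and 4.12 in HF24, 3.91 and 3.98 in C24, 5.36 and 5.35 in HF12, and 4.23 and 4.40 in C12. The HF12 arrays stood above all others. Plin2 rose by 1.04 ± 0.07 on the high-fat diet at 12 weeks (adjusted p = 0.000224), a 2.06-fold difference, and its second probe gave 0.87 (adjusted p = 0.000679). At 24 weeks the difference of 0.20 ± 0.07 did not pass (adjusted p = 0.0952), although the 2 groups did not overlap. The second probe gave 0.06, and with an intensity trend in the variance the first passed (adjusted p = 0.0316). Between the feeding times Plin2 fell by 1.21 ± 0.07 on the high-fat diet (adjusted p = 0.00013) and by 0.37 ± 0.07 on chow (adjusted p = 0.00921). Macrophage markers were also higher in HF12 than in C12, all 12 of them and by a median of 3.72. All 12 were higher in C24 than in C12 too, by a median of 2.24, where Plin2 was lower. Between HF24 and C24, 11 were higher, by a median of 1.18, where Plin2 did not pass. Between HF24 and HF12, 3 were higher and 8 lower, with a median of −0.33, where Plin2 was lower. The part of macrophages in the Plin2 differences was not tested.

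Plin3 moved least between its highest and lowest group, by 0.60. It had levels of 3.82 on both HF24 arrays, 3.62 and 3.48 in C24, 4.08 and 4.22 in HF12, and 4.09 on both C12 arrays. The HF12 and C12 arrays overlapped, and the difference of 0.06 ± 0.08 did not pass (adjusted p = 0.595). At 24 weeks Plin3 was higher on the high-fat diet by 0.27 ± 0.08 (adjusted p = 0.0428). That call was lost without either C12 array (adjusted p = 0.0665), C24 replicate 1 (0.0516), C24 replicate 2 (0.17) or either HF24 array (0.139). The Plin3 call was lost with the replicate block (adjusted p = 0.0765), quantile normalization (0.0504), no filter on dim probes (0.0988) and only the groups compared (0.0812). Longer feeding went with lower Plin3, by 0.33 ± 0.08 on the high-fat diet (adjusted p = 0.016) and 0.54 ± 0.08 on chow (adjusted p = 0.00245). The call on the high-fat diet was lost without HF12 replicate 2 (adjusted p = 0.08), HF24 replicate 1 (0.0699) or HF24 replicate 2 (0.0613).

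Plin5 encodes the perilipin of tissues that burn fat, where it ties droplets to mitochondria, and it is the direct neighbour of Plin4 on chromosome 17, with 0 protein-coding genes between them. It was dim throughout: levels were −6.02 and −5.85 in HF24 and −5.54 and −6.28 in C24, none well above background, −5.35 and −5.43 in HF12, and −3.49 and −3.87 in C12. C12 was above the other groups. Plin5 fell by 1.71 ± 0.25 on the high-fat diet at 12 weeks (adjusted p = 0.00436), while normexp gave −0.72. Its second probe was well above background in C12 alone. On chow Plin5 was at least 3.78-fold lower after 24 than after 12 weeks (adjusted p = 0.00101). That bound takes on each dim array the larger of the probe's own level and the lowest level well above background. Under the alternatives run, the log2 difference went from −3.80 to −0.91, so the bound applies to this probe's processed intensity only. Between HF24 and HF12 the difference did not pass (adjusted p = 0.128), and HF24 was not well above background; the second probe was below background in both groups and gives no fold. The first probe passed in that comparison without C24 replicate 1 or C24 replicate 2 (adjusted p = 0.0318 each), and with only the groups compared (0.015). HF24 and C24 give no fold, since both are below background.

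Cidec and Cidea encode CIDE proteins; that of Cidec drives the fusion and growth of droplets in white fat cells, and that of Cidea is best known from brown fat. Cidec had levels of −4.24 and −4.34 in HF24, −4.02 and −4.04 in C24, −1.31 and −1.35 in HF12, and 2.46 on both C12 arrays. The 24-week groups lay close together and far below both 12-week groups. Cidec fell by 3.79 ± 0.06 on the high-fat diet at 12 weeks (adjusted p = 1.69e-06), a 13.8-fold difference. With time it fell by 2.96 ± 0.06 on the high-fat diet (adjusted p = 3.78e-06) and on chow the difference was −6.49 ± 0.06 (adjusted p = 2.24e-07). The 24-week diet difference of Cidec was −0.26 ± 0.06 (adjusted p = 0.0189). That call was lost without C24 replicate 1 (adjusted p = 0.086), C24 replicate 2 (0.0624) or HF24 replicate 2 (0.107), and with normexp the Cidec difference was 0.02 (adjusted p = 0.814). Quantile normalization gave −0.08 (adjusted p = 0.389), no filter on dim probes 0.054 and only the groups compared 0.0663 as adjusted p. Between HF24 and HF12 normexp gave −1.92 for Cidec.

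Cidea had levels of −5.66 and −5.41 in HF24, −4.92 and −5.78 in C24, −3.60 and −3.35 in HF12, and −2.64 and −2.87 in C12. It was well above background on all 12-week arrays, on 1 of 2 C24 arrays and on 0 of 2 HF24 arrays. Cidea was at least 3.69-fold lower in HF24 than in HF12 (adjusted p = 0.00238) and fell by 2.60 ± 0.28 on chow (adjusted p = 0.000864). The diet differences did not pass, with −0.72 ± 0.28 at 12 weeks (adjusted p = 0.106) and −0.18 ± 0.28 at 24 weeks (adjusted p = 0.653). At 12 weeks the Cidea groups did not overlap, and the difference passed without C24 replicate 1 or C24 replicate 2 (adjusted p = 0.0203 each), with only the groups compared (0.0154) and with normexp (−0.48, adjusted p = 0.00693). With time normexp gave Cidea differences of −0.87 on the high-fat diet, where HF24 is below background, and −1.29 on chow, both called. The bound of 3.69-fold therefore applies to the processed intensity of this probe only. Of 8 brown fat markers, 6 were well above background in HF24 and 7 in each of C24, HF12 and C12, with Ucp1 below it in all. Their summed level was 1.79 to 1.90 in HF24, 2.62 to 2.73 in C24, 4.65 to 4.97 in HF12 and 7.88 to 8.37 in C12. Of the 7 tested, 6 were lower in C24 than in C12, among them Cox8b (−2.57), Zic1 (−3.42) and Ppargc1a (−4.70), and 4 were lower in HF24 than in HF12. Their part in the Cidea differences was not tested.

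Bscl2 and Fitm2 encode membrane proteins of the endoplasmic reticulum; seipin marks the sites where droplets form, and the protein of Fitm2 is needed for droplets to bud towards the cytosol. Bscl2 had levels of 0.00 and 0.10 in HF24, 0.20 and 0.35 in C24, 0.62 and 0.47 in HF12, and 1.03 and 1.28 in C12. Its groups stepped down without overlap but by less than the coat genes of fat cells, over a range of 1.11. Bscl2 fell by 0.61 ± 0.11 on the high-fat diet at 12 weeks (adjusted p = 0.00983), and the 24-week difference of −0.23 ± 0.11 did not pass (adjusted p = 0.173). With time it fell by 0.50 ± 0.11 on the high-fat diet (adjusted p = 0.0139) and by 0.88 ± 0.11 on chow (adjusted p = 0.00155). The Bscl2 call at 12 weeks was lost without HF12 replicate 2 (adjusted p = 0.0592), and the call with time on the high-fat diet without HF12 replicate 1 (adjusted p = 0.0774) or HF24 replicate 1 (0.0669).

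Fitm2 had levels of −1.40 and −1.38 in HF24, −1.35 and −1.24 in C24, −1.13 and −1.17 in HF12, and 0.00 and 0.14 in C12. Here C12 stood apart, and the other 3 groups lay close together without overlap. Fitm2 fell by 1.22 ± 0.07 on the high-fat diet at 12 weeks (adjusted p = 0.000103) and by 1.36 ± 0.07 with time on chow (adjusted p = 5.79e-05). Its second probe gave −0.92 (adjusted p = 0.000737) and −0.70 (adjusted p = 0.00154) in these comparisons. At 24 weeks the diet difference of −0.10 ± 0.07 did not pass (adjusted p = 0.351). Between HF24 and HF12 Fitm2 differed by −0.24 ± 0.07 (adjusted p = 0.0365), while the second probe gave 0.02 (adjusted p = 0.883) and leaving out either HF12 array or either HF24 array gave adjusted p from 0.0939 to 0.149. That Fitm2 call was also lost with normexp, quantile normalization, the authors' deposited values, no filter on dim probes, the mean of both probes, the replicate block (adjusted p = 0.0501) and each setting that took the 75th percentile over probes (adjusted p = 0.0513 to 0.0535).

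Adig encodes adipogenin, a small membrane protein of fat cells that is switched on during adipogenesis. It had the widest range of the 10 members, 9.14 between the C12 and HF24 means. Adig had levels of −5.04 on both HF24 arrays, −4.41 and −4.50 in C24, 0.22 and 0.24 in HF12, and 4.13 and 4.07 in C12. In processed intensity these are means of 40.55 in HF24, 63.75 in C24, 1660.15 in HF12 and 23666 in C12, with no scaling between arrays. Adig fell by 3.87 ± 0.06 on the high-fat diet at 12 weeks (adjusted p = 1.69e-06), a 14.6-fold difference, and by 0.58 ± 0.06 at 24 weeks (adjusted p = 0.00101). With time it fell by 5.27 ± 0.06 on the high-fat diet (adjusted p = 1.85e-06) and on chow the difference was −8.56 ± 0.06 (adjusted p = 1.82e-07). With normexp the Adig difference at 24 weeks was −0.12 and did not pass (adjusted p = 0.147), and with quantile normalization it was −0.38 (adjusted p = 0.00536). The HF24 levels of Adig lie just above the lowest levels that counted as well above background on those arrays, −5.31 and −5.49. Under the alternatives run, the Adig difference between HF24 and HF12 went from −5.28 to −3.68.

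**Figure D2:**
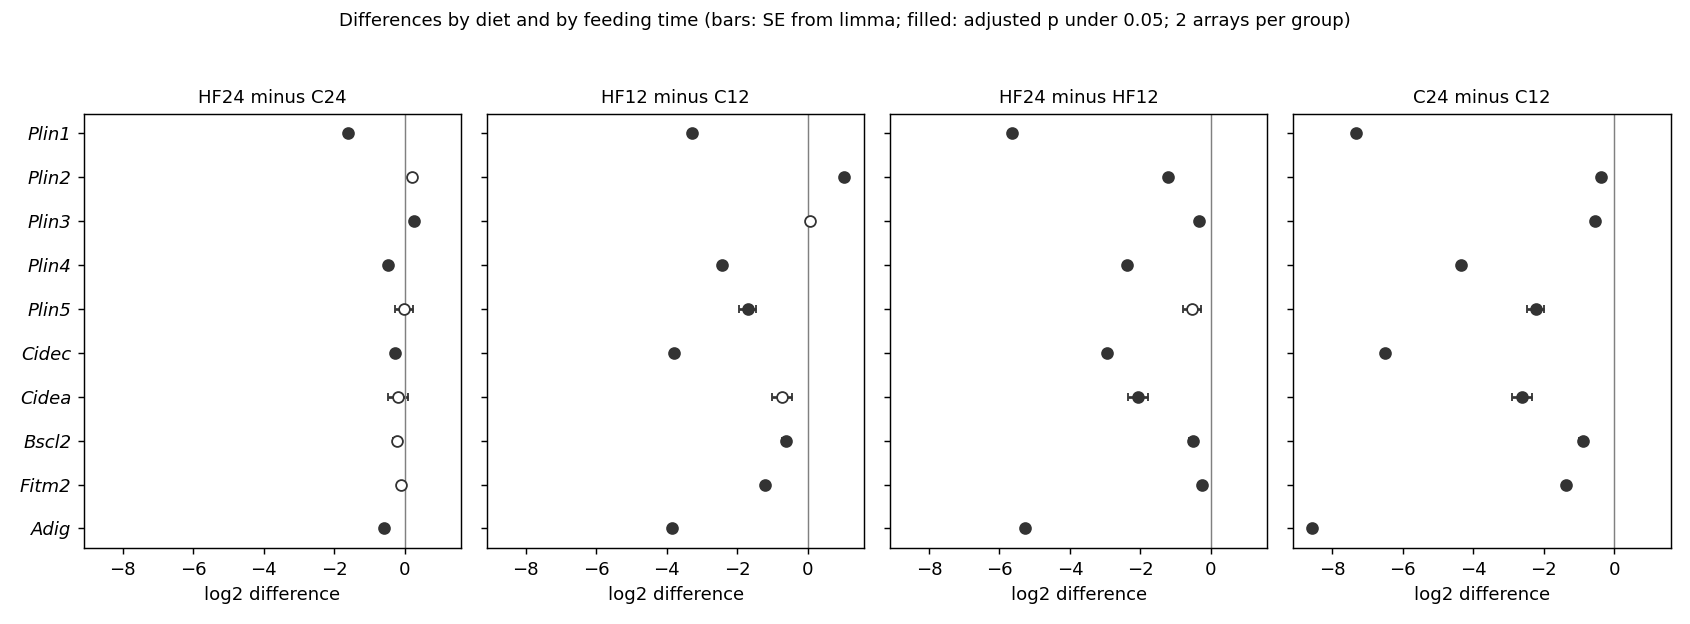
Log2 difference of each gene between HF24 and C24, HF12 and C12, HF24 and HF12, and C24 and C12, with bars for the SE from limma and filled points for adjusted p under 0.05. All 10 points lie left of 0 in the last panel, down to −8.56 for Adig, while Plin2 lies right of 0 at 1.04 between HF12 and C12.

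The difference between the diets itself differed between the feeding times for 7 of the 10 members, where 29.7% of all features were called. The sign was positive for 6 members, against 12.7% of all features, and negative for 1, against 16.9%. All 6 were positive by at least 1 on the log2 scale, against 3.34% of all features, and no member was negative by as much, against 7.16%. For Cidec the 24-week difference minus the 12-week difference was 3.53 ± 0.08 (adjusted p = 4.27e-05), for Adig 3.28 ± 0.08 (adjusted p = 4.27e-05) and for Plin4 1.97 ± 0.07 (adjusted p = 4.68e-05). In these genes the gap between the diets was narrower at 24 weeks, when the chow level was lower too. The same sign was called for Plin1 (1.68 ± 0.13, adjusted p = 0.00047) and Fitm2 (1.12 ± 0.10, adjusted p = 0.000881). The C24 means were −4.03 for Cidec, −4.46 for Adig and −3.49 for Plin1. The lowest levels well above background in HF24 were −5.31 and −5.49. From those C24 means a fall as large as at 12 weeks would have ended below these levels. Signal over background therefore limits the interaction of Cidec, Adig and Plin1. Plin5 was called too (1.68 ± 0.36, adjusted p = 0.017), but both of its 24-week groups are below background, so this value does not measure how the 24-week groups differ. Plin2 had the opposite sign, −0.84 ± 0.11 (adjusted p = 0.00261), with the larger diet difference at 12 weeks. Plin3 (0.21 ± 0.11, adjusted p = 0.209), Cidea (0.54 ± 0.40, adjusted p = 0.361) and Bscl2 (0.38 ± 0.16, adjusted p = 0.126) did not pass. The Plin5 interaction did not pass when either HF12 array (replicate 1, adjusted p = 0.0546; replicate 2, 0.0602) or C12 replicate 1 (0.058) was left out. Cidea passed without C24 replicate 1 (adjusted p = 0.0377), which is its 1 array above background at 24 weeks, so that the remaining 24-week values are all below background. Bscl2 passed with normexp (adjusted p = 0.0349). Normexp gave an interaction of 2.57 for Plin1 and the second probe 0.71 for Fitm2, both called.

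**Figure D3:**
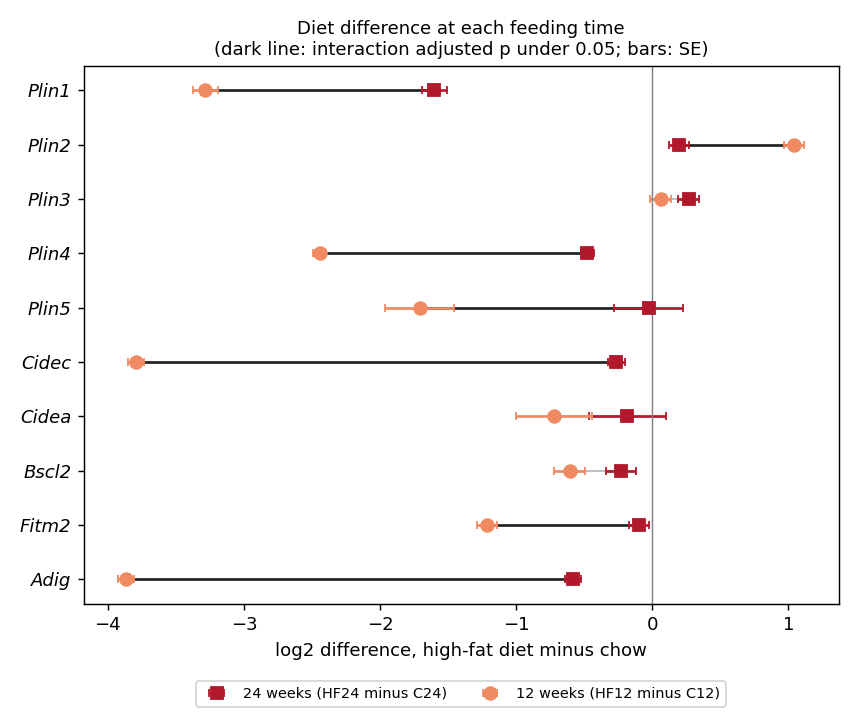
Log2 difference between high-fat diet and chow for each gene at 24 weeks (squares) and at 12 weeks (circles), with bars for the SE. Lines join the 2 times and are dark where the interaction passed; the longest line is that of Cidec, between −0.26 at 24 weeks and −3.79 at 12 weeks.

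The members fell into 2 orders of the group means. In Plin1, Plin4, Plin5, Cidec, Cidea, Bscl2, Fitm2 and Adig the level was highest in C12, then HF12, then C24, and lowest in HF24, an order shared by 10.9% of all features. For Fitm2 this holds for the brighter probe; the second probe averaged −3.26 in HF24, −3.05 in C24, −3.28 in HF12 and −2.35 in C12, with C24 above HF12 without overlap. For Plin5 the order of HF24 and C24 lies between values below background, and for Cidea 1 of those 4 arrays was above it. In Plin2 and Plin3 it was highest in HF12, then C12, then HF24, and lowest in C24, an order shared by 2.94% of all features. Neighbours in the order overlapped for HF24 and C24 in Plin5 and Cidea and for HF12 and C12 in Plin3. As a description over the 8 arrays, which share groups, slide and scaling, Plin1, Plin4, Cidec and Adig correlated with each other at Pearson r of 0.977 to 0.998. Plin2 correlated with the 8 genes of the first order at 0.00 to 0.53, and Plin3 with them at 0.51 to 0.85.

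The genes with a symbol whose levels over the 8 arrays were most like a member's were looked up among 12155 candidates. Candidates were the genes other than members that were called in at least 1 comparison of these same arrays. A high r with members that differ between the groups is therefore partly built in. Plin4 was most like G0s2 (r = 0.9995), which encodes an inhibitor of the lipase ATGL, and Scarb1 (0.9988), which encodes a lipoprotein receptor. Plin1 was most like Slc1a3 (0.9987), Car3 (0.9986) and Lpin1 (0.9982), and Adig like the adipokine gene Retn (0.9993). Cidec was most like Mgst2 (0.9994) and Mup4 (0.9993), and Plin2 like H2bc3 (0.9947) and Rtl6 (0.9914). Plin3 was most like Vps52 (0.9906), Plin5 like Rars2 (0.9958) and Cidea like Lancl1 (0.9961). Bscl2 was most like Pccb (0.9946) and Fitm2 like Prtn3 (0.9986). The 8 arrays of these correlations share 4 groups and 1 slide.

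Other genes of droplet formation and turnover were examined as a list of 28, all tested. Between HF12 and C12, 3 were higher and 19 lower, with a median of −0.76, where 13.7% of all features were higher and 17.6% lower, with a median of −0.03. The decreases include the lipase gene Pnpla2 (−2.44 ± 0.09), its inhibitor gene G0s2 (−2.47 ± 0.05), and the triglyceride synthesis genes Agpat2 (−2.05 ± 0.05) and Gpat3 (−3.65 ± 0.09). Between C24 and C12, 6 were higher and 17 lower, with a median of −1.57, where 24.5% of all features were higher and 22% lower, with a median of 0.02. The lower genes again include G0s2 (−4.63 ± 0.05) and Gpat3 (−4.69 ± 0.09). Between HF24 and HF12, 4 were higher and 16 lower, with a median of −0.45, where 21.1% of all features were higher and 25.5% lower, with a median of −0.03. Lpin1 (−1.37 ± 0.06) and the monoglyceride lipase gene Mgll (−0.98 ± 0.06) were among the lower genes.

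Between HF24 and C24 the 28 genes split into 4 higher and 6 lower, with 18 that did not pass and a median of −0.07. The 10 of 28 called are near the 33.1% called over all features, of which 12.9% were higher and 20.2% lower, with a median of −0.01. The other FIT gene, Fitm1, which is known from muscle, was at least 1.41-fold lower in HF24 than in C24 (adjusted p = 4.85e-05) and at least 4.79-fold lower in HF24 than in HF12 (adjusted p = 2.70e-06). All 7 skeletal muscle markers were lower in those comparisons too, by medians of −1.93 and −3.04, and their part in the Fitm1 difference was not tested. In the interaction, 17 of the 28 genes were called with a positive sign and 4 with a negative sign, where 12.7% of all features were positive and 16.9% negative. The positive genes include Agpat2 (2.20 ± 0.07), G0s2 (2.08 ± 0.07), Gpat3 (3.44 ± 0.13) and Pnpla2 (2.89 ± 0.12).

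**Figure D4:**
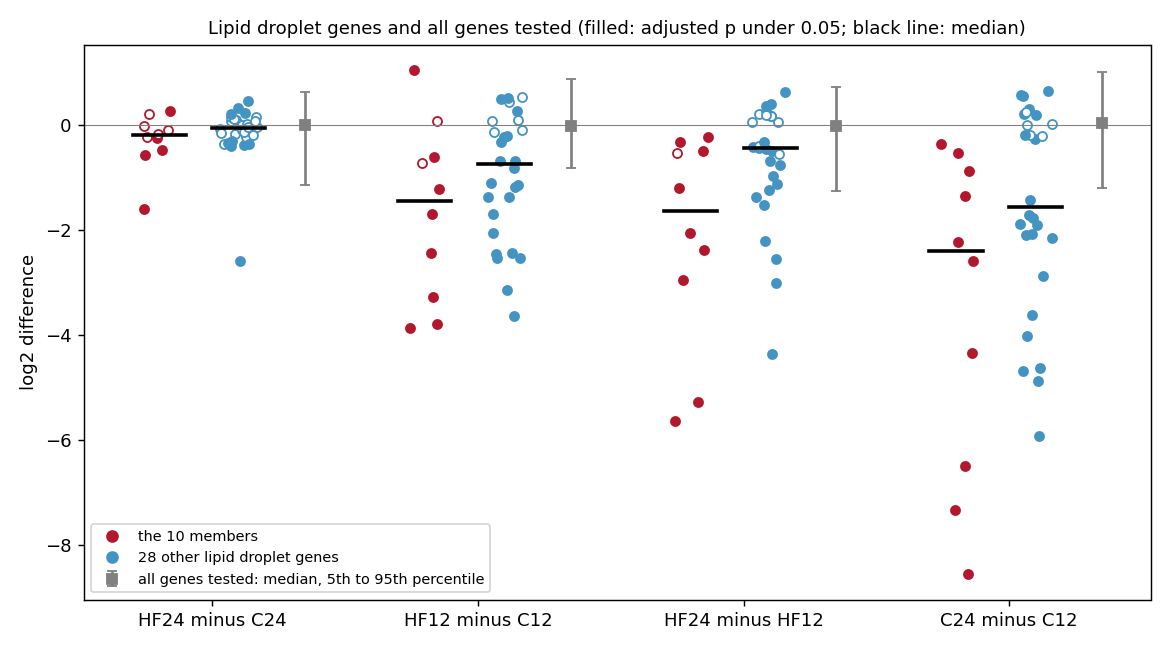
Log2 differences of the 10 members and of 28 other lipid droplet genes in the 4 comparisons, each point a gene, filled for adjusted p under 0.05, with black lines for medians and grey squares and bars for the median and the 5th to 95th percentile of all features tested. The member medians lie at −0.21, −1.46, −1.64 and −2.41 from left to right, below the list of other genes in each comparison.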

How the data were processed

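RNA labelled with Cy3 was measured on 8 one-colour Agilent mouse arrays on 1 slide and in 1 scan, per the file headers, with Feature Extraction 11.0.1.1 per the submitters' processing notes. The deposited processed intensity is that software's output under a one-colour expression protocol, per the file headers, with no scaling between arrays. The authors also deposited log2 values, which equal log2 processed intensity plus 1 constant per array; the rule behind the constant is not given in the sources used here.

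Spots with outlier flags were dropped, the log2 intensity was averaged over the spots of a probe, and each array's 75th percentile over its non-control spots was subtracted. Probes had to be well above background on both arrays of at least 1 group, and the brightest such probe stood for its gene. RefSeq (GRCm38.p6) accessions named 32907 probes; the headers name another build, so only promoter coordinates are given. limma 3.58.1 (R 4.3.3) fitted a mean for each group, with 4 residual and 1.87 prior degrees of freedom, and was tested on simulated data. Python 3.11.15, pandas 2.3.3 and matplotlib 3.10.9 were used.

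The members and lists were chosen with earlier results of these data known. The flag rule and percentile were also settled after results were seen: 5 combinations were run, and the one kept gave the same counts of called features as an earlier analysis of these files. The other 4 are alternatives chosen after seeing the data. Beside all members, up to 4 called genes of the other droplet list by smallest p were eligible for naming, as were the genes most like a member. Markers are named where absent, as examples of their list, or where they differ from most of it. Same-numbered replicates of different groups deviated together with r from −0.082 to 0.166, so the numbers were not taken as pairs. Further alternatives were normexp with an offset of 50 on the median intensity followed by quantile normalization, quantile normalization alone, the authors' values, other filters and probe rules, an intensity trend, only the groups compared, a replicate block and leaving out each array.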

Additional observations from a re-analysis of the deposited data

Results flagged for a closer look

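The diet difference differed between the feeding times by the interaction term in 7 members, given here as the 24-week difference minus the 12-week difference on the log2 scale. The values were 3.53 for Cidec, 3.28 for Adig, 1.97 for Plin4, 1.68 for Plin1, 1.68 for Plin5, 1.12 for Fitm2 and −0.84 for Plin2. In Cidec, Adig, Plin4, Plin1 and Fitm2 the high-fat groups were below chow by more at 12 than at 24 weeks. For Plin5 both 24-week groups are below background, so its 24-week difference is not measured. In Plin1 and Adig the HF24 levels lie just above the lowest levels that counted as well above background. For Cidec, Adig and Plin1 a fall from the C24 level as large as that at 12 weeks would have ended below those levels. Signal over background therefore limits their interaction.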

How the results depend on the processing

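The number of members called stayed within 1.5 times of that reported under each alternative run, except between HF24 and C24. There 5 became 3 with normexp, quantile normalization, no filter on dim probes or only the groups compared, and 3 to 5 with 1 array left out. The replicate block gave 4 there, 8 between HF24 and HF12, and the reported 8, 10 and 7 for HF12 against C12, C24 against C12 and the interaction. With 1 array left out, 7 to 9 members were called between HF12 and C12, 10 between C24 and C12, 6 to 10 between HF24 and HF12 and 6 to 8 in the interaction. The choice of flag rule and percentile, made after seeing counts, moved the members called in 1 comparison, HF24 against HF12, where 3 of the 4 other combinations gave 8 in place of 9. Over all features these combinations called 9786 to 10176 between HF24 and C24, against 9805 as reported, with 3794 to 4633 of them higher, against 3821. Of the single members' values, 981 kept direction and call, 39 lost the call, 11 gained it and 14 changed sign. For Plin5 between HF24 and C24 the changed signs were 0.0771 (normexp), 0.1939 (quantile), 0.0064 (the authors' values), 0.0011 (percentile over probes), 0.0084 (no probe with any flagged spot) and 0.0029 (no probe with a non-uniformity flag), and leaving out an array gave −0.396 to 0.3401. In the same comparison the sign changed for Cidec (0.0241, normexp), Cidea (0.0267, quantile; −0.6114 to 0.2422 with 1 array left out) and Fitm2 (0.02, normexp). Plin3 ran from −0.0145 to 0.1348 between HF12 and C12 with 1 array left out, and Fitm2 was 0.0184 between HF24 and HF12 by its second probe. The cause of these changes was not tested. Signal over background limits Plin5 and Cidea at 24 weeks. In HF24 it also limits Plin1 and Adig, whose levels lie just above the lowest that counted as well above background. For Cidec it limits how large a fall from C24 to HF24 could be measured.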
